A study of Mus musculus with 20 samples.

Results

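Islets without both mitofusins in their β-cells were compared with control islets. By the sample labels, 5 libraries named Mfn1/2.KO (here β-Mfn1/2DKO) were set against 6 libraries named Ctrl, which are 11 of the 20 libraries of the series. All came from 12-week-old mice on a C57BL/6N background, whose isolated islets were cultured overnight before RNA was extracted. In β-Mfn1/2DKO mice, Cre recombinase from the *Ins1* locus, active in β-cells, removed a floxed exon from both *Mfn1* and *Mfn2*. The labels call the Ctrl mice wild type, while the study's methods pool littermates with *Ins1*-Cre alone and with floxed alleles alone. Which Ctrl library had which genotype is not given in the sources used here. Ctrl libraries 1 to 3 came from female and 4 to 6 from male mice, and β-Mfn1/2DKO libraries 1 and 2 came from female and 3 to 5 from male mice. The other libraries of the series were 5 of β-Mfn2KO and 4 of β-Mfn1KO mice of the same age. In these mice the same Cre removed the floxed exon of *Mfn2* alone or of *Mfn1* alone. β-Mfn2KO libraries 1 and 2 and β-Mfn1KO libraries 1 to 3 came from female mice, and the rest from male mice. Both groups entered the fit, and β-Mfn2KO values are given beside some results. All 28632 genes of the count table were tested, and the text mostly follows gene families and pathways beyond those that the study drew in its figures.

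Mitofusins 1 and 2 are GTPases of the outer mitochondrial membrane that join mitochondria into networks. β-cells rely on mitochondrial ATP to couple glucose to insulin release, and the study asked what the loss of both proteins does to that coupling. Cells with impaired mitochondria or misfolded proteins can phosphorylate the translation factor eIF2α, which raises the translation of the transcription factor ATF4. This integrated stress response (ISR) typically turns on *Ddit3*, *Trib3*, *Fgf21* and *Gdf15* together with genes for amino acid synthesis and transport. A separate program, the unfolded protein response (UPR) of the endoplasmic reticulum (ER), raises chaperones such as BiP (*Hspa5*). Most RNA of an islet comes from β-cells, with smaller amounts from α-, δ- and PP cells, vessels and leukocytes, and isolated islets can carry acinar and duct tissue.

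The Ctrl libraries held 12400687 to 20329064 counts and the β-Mfn1/2DKO libraries 65533388 to 122947313, so depth and genotype cannot be told apart by the design. A fit with a term for depth was run beside the main one, but its term is set only by β-Mfn2KO libraries, of which 4 and 5 held 55962873 and 59533407 counts and 1 to 3 held 15110046 to 18919122. Of these, 3 to 5 came from male and 1 and 2 from female mice. Depth thus goes partly with sex in that term, and that fit held no term for sex. Below, log2 fold changes from that fit are given in brackets for genes whose adjusted p was then 0.05 or more, since the fold and the p did not always move together. Normalized counts below are the deposited gene counts scaled with TMM, the composition factor of edgeR, at the mean library size. *Mfn1* ran from 1518 to 1807 (median 1693) in Ctrl and stood at 690.3, 691, 687, 856 and 1062 in β-Mfn1/2DKO. *Mfn2* ran from 3089 to 4373 (median 3252) in Ctrl and stood at 2022, 2082, 2062, 2131 and 2124 in β-Mfn1/2DKO, so the groups did not overlap for either target. Libraries 4 and 5 of β-Mfn1/2DKO stood apart. The 35 acinar markers took up 3.20% and 8.03% of their counts, against 0.123 to 0.187% in β-Mfn1/2DKO libraries 1 to 3 and 0.0574 to 0.329% in Ctrl. The first principal component, with 45.2% of the variance of 2000 genes, set these libraries apart from all others. The difference in mean acinar share did not pass the test (two-sided exact permutation p = 0.115 over 462 splits). For this reason most lists below are given with all 5 β-Mfn1/2DKO libraries and with libraries 1 to 3 alone, as are the genes that the text dwells on. Endothelial markers took up 0.0312 ± 0.0049% of counts in Ctrl and 0.0513 ± 0.0084% in β-Mfn1/2DKO (mean ± SD of 6 and 5 libraries, exact permutation p = 0.0022). Libraries 1 to 3 ran from 0.0419 to 0.05% on that measure, above the highest Ctrl value of 0.0380%. The α-cell markers took up 3.17 ± 1.17% and 4.49 ± 0.79% (exact permutation p = 0.065), and leukocyte and δ-cell shares gave p = 0.98 and 0.59. Stromal markers gave an exact permutation p of 0.93, but took up 0.0656% of counts in Ctrl library 6 alone. Without that library, a setting chosen after seeing the data, the stromal share was 0.00995 to 0.0166% in Ctrl and 0.0180 to 0.0332% in β-Mfn1/2DKO, with no overlap (exact permutation p = 0.0079 over 252 splits), and the leukocyte share gave p = 0.087. Schwann cell markers, at 0.00178 to 0.00243% in Ctrl and 0.00259 to 0.00373% in β-Mfn1/2DKO, did not overlap either (exact permutation p = 0.0022). Duct markers ran from 0.157 to 0.212% in Ctrl and from 0.191 to 0.828% in β-Mfn1/2DKO (exact permutation p = 0.024), with libraries 1 to 3 inside the Ctrl range. The part of these cell types in the results below was not tested. Fewer cells of a type and less RNA per cell cannot be told apart in such bulk libraries.

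**Figure D1:**
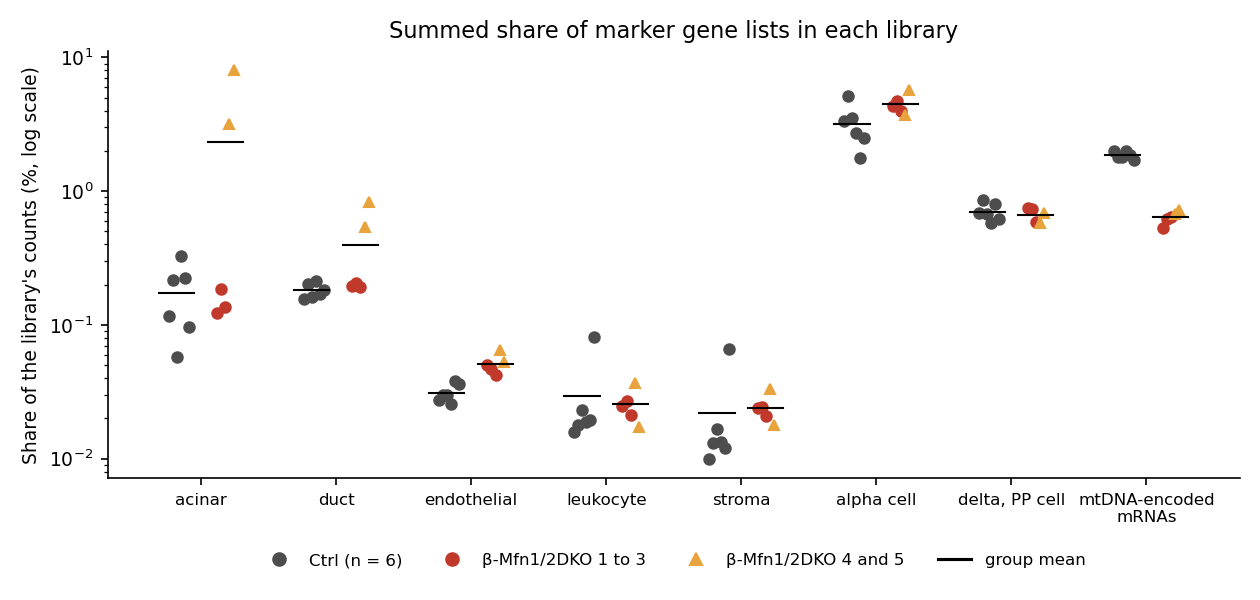
Summed share of each marker list in a library's counts (vertical axis, %, log scale) for 6 Ctrl and 5 β-Mfn1/2DKO libraries, with bars at the group means. The acinar share of β-Mfn1/2DKO libraries 4 and 5 is 3.20% and 8.03%, and the endothelial shares of all 5 β-Mfn1/2DKO libraries lie above those of Ctrl.

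A gene was called when its adjusted p in edgeR's quasi-likelihood test was under 0.05 and its fold change over 1.5. Changes are given as log2 fold changes, and the number after "rose by" or "fell by" is the size of that change. By this rule 928 genes were higher (3.24% of those tested) and 563 lower (1.97%) in β-Mfn1/2DKO than in Ctrl, and 4710 genes had an adjusted p under 0.05. Among 12312 expressed genes, those whose mean normalized count reached 100, 614 were called higher (4.99%) and 322 lower (2.62%). With β-Mfn1/2DKO libraries 1 to 3 alone, 405 of these genes were called higher (3.29%) and 263 lower (2.14%). At an adjusted p under 0.05 alone, 19.7% of expressed genes were higher and 13.9% lower, and 15.8% and 7.98% with libraries 1 to 3. The libraries of the groups did not overlap for 12.1% of expressed genes in the higher and 8.52% in the lower direction. The counts of list members below are to be read beside these shares, also where no share is repeated. Calls shared by both fits numbered 344 higher and 239 lower in this expressed set. Over all genes, 442 of the 928 higher calls were not made without libraries 4 and 5. Scaling by total counts in place of TMM moved the median log2 fold change of expressed genes from 0.03 to 0.17 and the share of higher calls from 62.2% to 79.6%.

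**Figure D2:**
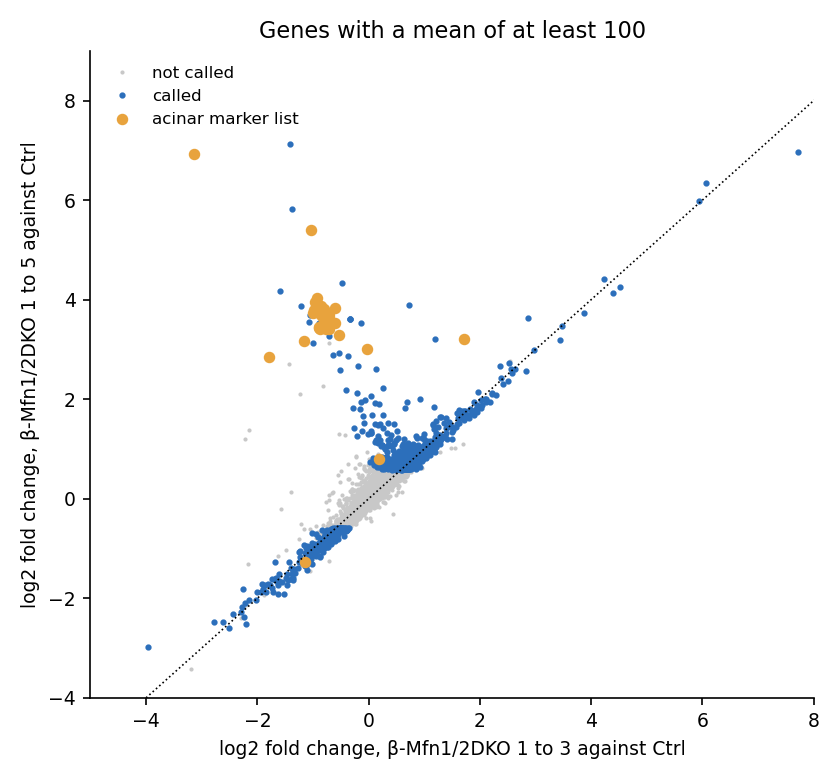
Log2 fold change against Ctrl of each expressed gene, with β-Mfn1/2DKO libraries 1 to 3 on the horizontal and all 5 on the vertical axis, and a dotted line of equality. The acinar markers (orange, median 3.62 with all libraries and −0.85 with libraries 1 to 3) leaves the line, while *Stc2* and *Areg* lie near it at 4.41 and 5.98.

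The regulators and effectors of the ISR were split in their response. Of 23 members, 9 were called higher and 0 lower with all libraries, and 10 and 0 with libraries 1 to 3, where the median log2 fold change of expressed members was 0.38 against 0.05 over all expressed genes. *Stc2*, which encodes the secreted glycoprotein stanniocalcin 2 (ENSMUSG00000020303, chromosome 11, 31357307–31370074 on GRCm38), showed the largest change of the list. It ran from 15.2 to 95.9 (median 65.2) in Ctrl and stood at 1088, 1357, 1022, 1783 and 1389 in β-Mfn1/2DKO, with no overlap. On the log2 scale it rose by 4.41 (SE 0.33, adjusted p = 6.9e-09), and by 4.23 (adjusted p = 3.4e-08) with libraries 1 to 3. *Ddit3* encodes CHOP, a transcription factor of prolonged stress. It ran from 1628 to 3297 (median 2290.4) in Ctrl against 9601, 13039.6, 10719, 8497 and 6243, a change of 1.95 (SE 0.29, adjusted p = 4.2e-05) that was larger in libraries 1 to 3, at 2.18. The pseudokinase gene *Trib3*, a target of CHOP and ATF4, had 1799 to 4591 (median 2869) in Ctrl and 11620.1, 13334, 11855, 10871 and 7922 in β-Mfn1/2DKO. This was a rise of 1.94 (SE 0.23, adjusted p = 2.9e-06), and again no β-Mfn1/2DKO library fell within the Ctrl range.

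*Nupr1*, a chromatin-associated stress gene that is also on the acinar list, moved with libraries 4 and 5. It ran from 2462 to 7998 (median 6056) in Ctrl and rose to 15379.9, 19778, 19879.7, 72494 and 135773 in β-Mfn1/2DKO, so that its log2 fold change of 3.20 (SE 0.55, adjusted p = 2.4e-04) became 1.71 (adjusted p = 0.0087) with libraries 1 to 3. Named after its values were seen, the transcription factor *Atf3* did the same, with a change of 1.83 (adjusted p = 1.8e-04) that became 1.17 (adjusted p = 0.0032). The mitokine gene *Fgf21* stood at 29.8, 20.7, 25.05, 149.7 and 232 in β-Mfn1/2DKO against 6.23 to 17.5 (median 13.3) in Ctrl. Its rise of 2.90 was not called with libraries 1 to 3, at 1.08 (adjusted p = 0.081). *Gdf15*, another circulating stress factor, rose by 0.80 and by 0.68 in the same order. *Sesn2*, also named after its values were seen and an inhibitor of mTORC1, rose by 0.86 (adjusted p = 9.1e-08). The upstream factor *Atf4* itself had 13511 to 20695 (median 15378) in Ctrl and 16988, 19026, 16467, 17108 and 16241 in β-Mfn1/2DKO. These ranges overlapped, and its log2 difference of 0.07 did not pass the test (adjusted p = 0.67). With a term for library depth, *Stc2*, *Ddit3*, *Trib3* and *Sesn2* kept an adjusted p under 0.05, and *Nupr1* (1.72), *Atf3* (0.76), *Gdf15* (0.67) and *Fgf21* (2.22) did not. *Ddit3* overlaps *Mars* on the opposite strand, and whether the counting used strand is not given in the sources used here.

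Promoters of the genes called higher in the ISR, amino acid and tRNA synthetase lists were read for the core of the element that C/EBP and ATF factors bind, TGATGNAA on either strand. RefSeq windows (GRCm38.p6, 250 bases before to 50 after the start) were at hand for 14 of the 17 such genes, and 5 of the 14 (35.7%) held the motif. It occurred in 4.51% of 27025 genes with a window and in 2.67% of the 9536 expressed ones. The lists hold genes that the ISR typically turns on, and the share among members not called was not computed. These shares thus describe the chosen lists, and no test was run on them. The 5 genes were *Atf3*, *Nupr1*, *Fgf21*, *Got1* and *Trib3*, the last with its match after the start. The windows of *Stc2* and *Ddit3* held none, although both genes rose. Shown are the 250 bases before the start of *Nupr1* (chr7:126625471-126625720, minus strand) and *Atf3* (chr1:191183334-191183583, minus strand), where capitals mark the match, and those of *Stc2* (chr11:31370062-31370311, minus strand) for comparison, each from 5′ to 3′ on the strand of the gene.
Nupr1: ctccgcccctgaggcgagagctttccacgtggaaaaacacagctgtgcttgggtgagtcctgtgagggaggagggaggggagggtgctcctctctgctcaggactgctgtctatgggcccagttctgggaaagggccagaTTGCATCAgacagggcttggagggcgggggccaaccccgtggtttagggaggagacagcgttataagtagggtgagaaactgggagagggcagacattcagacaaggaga
Atf3: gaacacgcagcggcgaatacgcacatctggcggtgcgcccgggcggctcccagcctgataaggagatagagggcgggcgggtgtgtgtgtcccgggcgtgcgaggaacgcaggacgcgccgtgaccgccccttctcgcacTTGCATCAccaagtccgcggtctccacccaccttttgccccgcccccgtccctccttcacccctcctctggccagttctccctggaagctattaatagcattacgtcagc
Stc2: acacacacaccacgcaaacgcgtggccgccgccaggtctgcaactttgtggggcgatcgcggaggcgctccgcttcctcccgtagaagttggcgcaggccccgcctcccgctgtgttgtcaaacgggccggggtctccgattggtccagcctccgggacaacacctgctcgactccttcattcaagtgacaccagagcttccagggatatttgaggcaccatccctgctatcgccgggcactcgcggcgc

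Few genes of amino acid synthesis were called. Among 20 genes of serine, one-carbon, proline and asparagine synthesis, 1 was called higher and 0 lower, and 0 in either direction with libraries 1 to 3. At an adjusted p under 0.05 without a fold threshold, 2 of them were higher and 4 lower. *Asns*, asparagine synthetase, had 7269 to 9862 (median 8297) in Ctrl and 6731, 7377, 6631, 7364 and 6972 in β-Mfn1/2DKO, a difference of −0.27 (SE 0.09, adjusted p = 0.056). *Asns* was lower at an adjusted p under 0.05 in 10 of 23 alternatives, among them DESeq2 (adjusted p = 0.0095), edgeR with a replicate block (adjusted p = 0.0057), with sex as a term (adjusted p = 0.046) and on thinned counts (adjusted p = 0.026). *Mthfd2* of the mitochondrial folate cycle differed by −0.14 (adjusted p = 0.53). *Shmt2*, which makes glycine in mitochondria, fell by 0.43 (adjusted p = 0.0057). Of 20 cytosolic tRNA synthetases 0 were called, and 1 had an adjusted p under 0.05.

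Alanine and aspartate metabolism changed at single genes. *Gpt2*, the mitochondrial alanine transaminase and an ATF4 target, ran from 1009 to 1506 (median 1319.8) in Ctrl to 4577, 5089, 5104, 5335 and 3648 in β-Mfn1/2DKO. It rose by 1.88 (SE 0.10, adjusted p = 5.1e-11) with all libraries and by 1.95 with libraries 1 to 3, while cytosolic aspartate transaminase *Got1* rose by 0.60 (adjusted p = 9.0e-04). In the same list of 27 genes, 4 were called lower, and 3 with libraries 1 to 3. *Cad* and *Ppat*, which start pyrimidine and purine synthesis, fell by 0.97 (adjusted p = 4.4e-07) and 0.88 (adjusted p = 9.1e-08), and *Aldh5a1* of the GABA shunt fell by 1.13 (adjusted p = 6.4e-05). Their β-Mfn1/2DKO libraries all lay below Ctrl. Amino acid transporters were higher for 5 of 34 members, and 5 with libraries 1 to 3. The glutamate and aspartate carrier *Slc1a3* ran from 0 to 6.23 (median 2.51) in Ctrl and stood at 85.5, 122.6, 72.7, 131 and 118 in β-Mfn1/2DKO, a change of 5.40 (SE 0.55, adjusted p = 4.4e-07). *Slc38a3*, a glutamine carrier, rose from 6.08 to 42.3 (median 19.3) in Ctrl to 203, 138, 149.6, 318 and 621, by 3.64 (adjusted p = 4.8e-05), and by 2.86 with libraries 1 to 3. The cationic carrier *Slc7a3* and the glycine carrier *Slc6a9* rose by 1.52 (adjusted p = 6.9e-04) and 0.99 (adjusted p = 4.7e-05). With a term for depth *Gpt2*, *Cad*, *Ppat* and *Slc1a3* kept an adjusted p under 0.05, and *Got1* (0.70), *Aldh5a1* (−0.85), *Slc38a3* (1.61), *Slc7a3* (1.05), *Slc6a9* (0.75) and *Shmt2* (−0.43) did not.

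Of 38 ER chaperone and UPR genes 10 were called lower and 1 higher. At an adjusted p under 0.05 alone 26 were lower and 4 higher, beside 13.9% and 19.7% of expressed genes, and the median log2 fold change was −0.51. Libraries 1 to 3 gave 9 lower and 2 higher calls, and 22 were lower at that adjusted p, beside 7.98% of expressed genes. *Sdf2l1*, a cofactor of the BiP chaperone cycle, ran from 2864 to 8016 (median 5699) in Ctrl and stood at 2206, 3050.2, 2465, 2413 and 1956 in β-Mfn1/2DKO, which overlap at the lowest Ctrl library. It fell by 1.25 (SE 0.21, adjusted p = 2.3e-04), or by 1.14 (adjusted p = 0.0034) with libraries 1 to 3. The secreted ER protein *Manf* fell by 0.86 (adjusted p = 5.2e-04), the chaperone *Hyou1* by 0.82 (adjusted p = 0.001) and the ER membrane selenoprotein *Selenok* by 0.83 (adjusted p = 2.3e-06). *Hspa5* itself had 55111 to 99281 (median 76906) against 57395, 73037, 67001, 60974 and 60187, a difference of −0.30 that did not pass the test (adjusted p = 0.10). It was lower at an adjusted p under 0.05 in 5 of 23 alternatives, namely DESeq2 (adjusted p = 0.026) and edgeR with a filter on low counts (adjusted p = 0.0496), a replicate block (adjusted p = 0.0021), the block and libraries 1 to 3 (adjusted p = 0.0076) or without Ctrl library 6 (adjusted p = 0.016). *Xbp1*, whose spliced form drives these chaperones, fell by 0.34 (adjusted p = 0.0035). *Ero1lb* (now *Ero1b*), the β-cell oxidase that forms disulfides in proinsulin, showed a larger loss. It ran from 42288 to 76251 (median 67715) in Ctrl and stood at 22868, 24364, 21118, 17100 and 16434 in β-Mfn1/2DKO without overlap, a fall of 1.64 (SE 0.16, adjusted p = 2.0e-07), or 1.46 (adjusted p = 6.8e-06) with libraries 1 to 3. With a term for depth *Ero1lb* and *Selenok* kept an adjusted p under 0.05, and *Sdf2l1* (−0.88), *Manf* (−0.57), *Hyou1* (−0.43) and *Xbp1* (−0.16) did not.

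**Figure D3:**
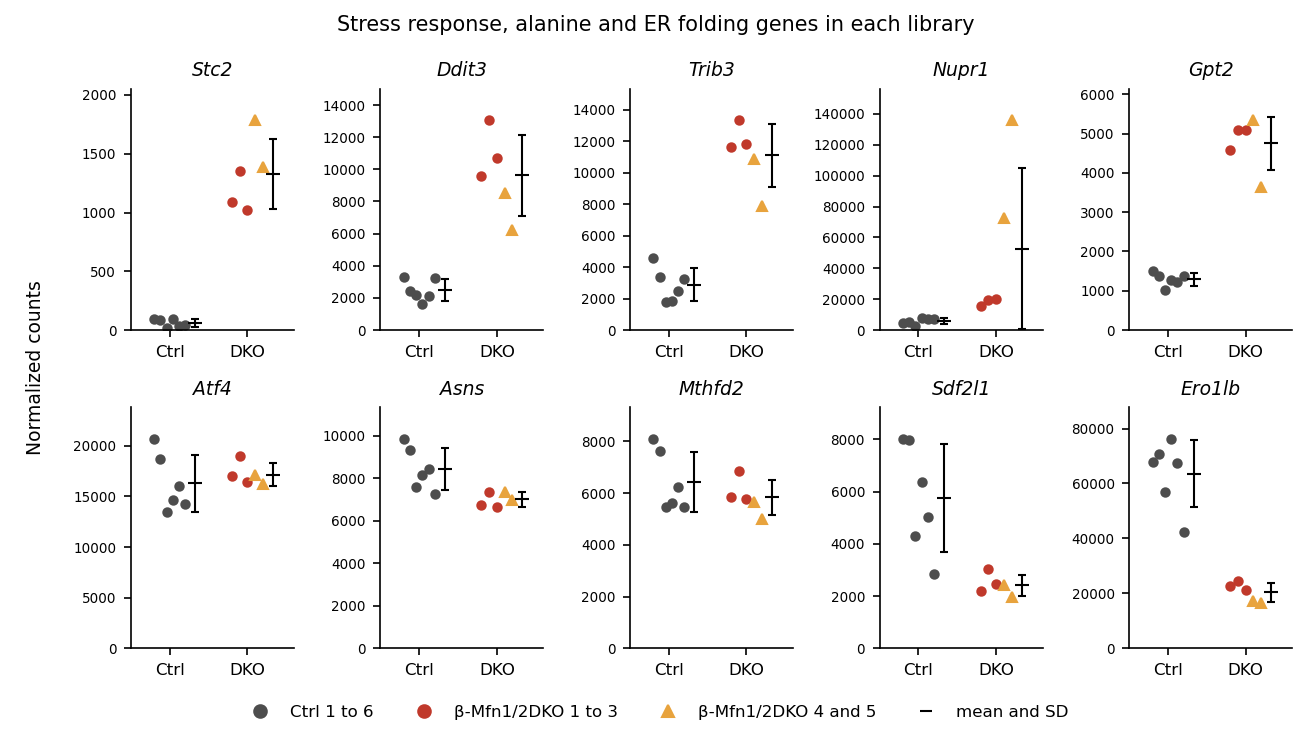
Normalized counts (vertical axes, each from 0) of 10 genes in 6 Ctrl and 5 β-Mfn1/2DKO libraries, with group means and SDs. *Stc2*, *Ddit3*, *Trib3*, *Nupr1* and *Gpt2* lie above every Ctrl library, *Ero1lb* lies below, and *Atf4*, *Asns* and *Mthfd2* overlap.

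**Figure D4:**
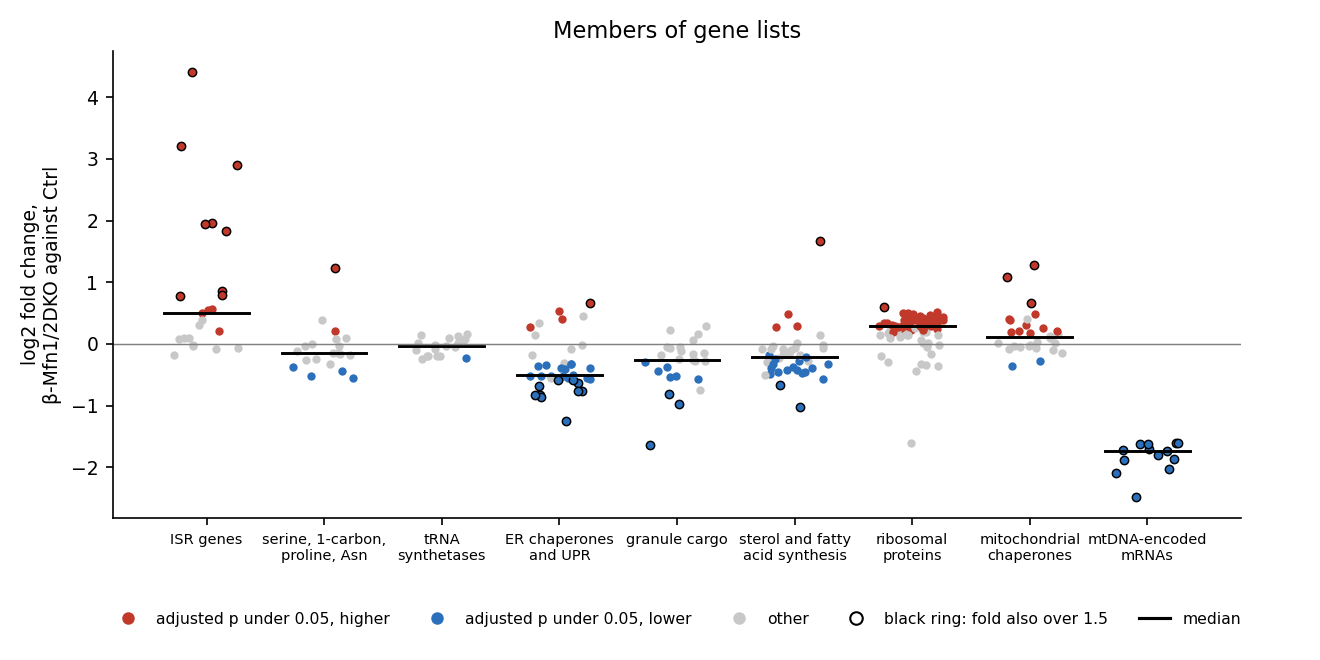
Log2 fold change of every listed gene, β-Mfn1/2DKO against Ctrl, by gene list, where colour marks an adjusted p under 0.05, a black ring a call and a bar the list median. ISR genes reach 4.41, while most ER chaperones (median −0.51) and all 13 mtDNA-encoded mRNAs (median −1.73) lie below 0.

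Of 32 prohormone and neuropeptide genes 3 were called lower and 4 higher, and 3 and 2 with libraries 1 to 3. The 3 that fell, *Ins1*, *Ucn3* and *Pdyn*, were called in both fits. *Ins1* (ENSMUSG00000035804, chromosome 19, 52264297–52265476) ran from 1065890 to 1962280 (median 1344600) in Ctrl and stood at 265795, 252446, 231510, 239291 and 202304 in β-Mfn1/2DKO, a change of −2.60 (SE 0.14, adjusted p = 5.1e-11). Cre is inserted in this locus, so the number of intact *Ins1* alleles differs between carriers and non-carriers, and its part in the result cannot be told apart from that of the mitofusins against Ctrl. Against β-Mfn2KO libraries, which carry the same Cre and changed by −0.94 against Ctrl, the difference was −1.66 (adjusted p = 1.1e-07). *Ucn3*, the maturity peptide of β-cells, ran from 12762 to 16371 (median 14872) in Ctrl to 6264, 7014, 6389.8, 4642 and 4214 and fell by 1.36 (SE 0.13, adjusted p = 1.2e-07). *Pdyn*, the precursor of dynorphins, ran from 2498 to 8920 (median 3458) in Ctrl and stood at 779, 1437, 683, 2244 and 1526 in β-Mfn1/2DKO, below every Ctrl library. Its fall was 1.80 (adjusted p = 3.2e-04) with all libraries and 2.25 (adjusted p = 1.3e-04) with libraries 1 to 3. *Iapp*, the amyloid peptide secreted with insulin, fell by 0.54 (adjusted p = 1.4e-04), which is under the fold threshold.

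Among 25 genes of insulin processing and granule cargo, 3 were called lower and 0 higher, with the same counts in libraries 1 to 3. At an adjusted p under 0.05 alone 9 were lower and 0 higher, beside 13.9% and 19.7% of expressed genes. Besides *Ero1lb* the calls were *Pcsk1*, the prohormone convertase that starts proinsulin cleavage (−0.97, adjusted p = 2.4e-05), and the granin *Scg3* (−0.80, adjusted p = 5.7e-06). *Ddc*, which makes serotonin and dopamine, fell by 0.58 (adjusted p = 2.0e-04). Of 42 exocytosis genes 3 were called lower and 2 higher, beside 1.97% and 3.24% of all genes tested, and 2 and 3 with libraries 1 to 3. Without the fold threshold 15 were lower and 7 higher at an adjusted p under 0.05, beside 13.9% and 19.7% of expressed genes. Libraries 1 to 3 gave 8 lower and 8 higher by that measure, beside 7.98% and 15.8%. *Sytl4* encodes granuphilin, which docks insulin granules, and ran from 20064 to 27607 (median 24426) in Ctrl to 12151, 12632, 10673, 9162 and 8416 in β-Mfn1/2DKO. It fell by 1.21 (SE 0.12, adjusted p = 3.3e-07) without overlap, and the vesicle protein *Syt5* fell by 0.92 (adjusted p = 4.1e-06). In the opposite direction, *Adm*, the vasodilator peptide adrenomedullin, rose from 0 to 37.4 (median 13.3) in Ctrl to 69.5, 90.3, 85.4, 138 and 91.0, by 2.64 (adjusted p = 8.3e-04). Of these genes *Pcsk1* (−0.65), *Ddc* (−0.41) and *Adm* (1.05) did not keep an adjusted p under 0.05 with a term for depth.

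Receptors changed in both directions, with 8 of 69 called higher and 7 lower, and 4 and 7 with libraries 1 to 3. The receptors that fell included known potentiators of insulin release or β-cell growth. The prolactin receptor *Prlr* ran from 7039 to 15238 (median 12326) in Ctrl and stood at 4058, 4192, 4214, 3796 and 3334 in β-Mfn1/2DKO, a fall of 1.59 (SE 0.18, adjusted p = 2.1e-06). *Gipr*, the receptor of the incretin GIP, and *Ffar1*, which senses long-chain fatty acids, fell by 0.85 (adjusted p = 1.7e-04) and 0.84 (adjusted p = 4.1e-06). Other receptors rose. *Ptger3*, a prostaglandin E2 receptor that couples to inhibitory G proteins, ran from 32.0 to 91.0 (median 73.8) in Ctrl and stood at 441, 254, 321, 279 and 492, a rise of 2.43 (SE 0.24, adjusted p = 2.9e-07). *Vipr2*, a receptor of VIP and PACAP, rose from 86.7 to 246 (median 131) in Ctrl to 558, 614, 532, 531 and 348, by 1.88 (SE 0.23, adjusted p = 5.2e-06). *P2ry14*, which binds UDP-glucose, rose by 1.76 (adjusted p = 2.9e-06), but it overlaps *Med12l* on the opposite strand, whose counts were 962% of its own and whose log2 difference was 0.11.

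Of 42 potassium channel genes 8 were called higher and 0 lower, beside 3.24% and 1.97% of all genes tested, and 6 and 0 with libraries 1 to 3. Among the 25 that were expressed, 3 were called higher, beside 4.99% of expressed genes. *Kcnj5*, a G protein-gated inward rectifier, stood at 2.91 to 23.3 (median 16.0) in Ctrl and 113, 94.0, 49.0, 52.9 and 52.96 in β-Mfn1/2DKO, a rise of 2.26 (adjusted p = 6.6e-05). The voltage-gated channel *Kcna2* rose from 173 to 370.5 (median 274) in Ctrl to 646, 554, 684, 1254 and 892, by 1.55 (adjusted p = 1.8e-05). *Kcnt1*, a sodium-activated channel, rose by 1.71 (adjusted p = 0.0023), and *Kcnj8*, the KATP pore of vessels, by 1.264 (adjusted p = 1.3e-04). *Kcnj8* moved together with the endothelial markers, and their part in its rise was not tested. The β-cell KATP channel genes *Abcc8* and *Kcnj11* had log2 differences of −0.06 (adjusted p = 0.68) and −0.08 (adjusted p = 0.54), whose sign changed with the scaling. Of 46 calcium, sodium and TRP channel genes 3 were called higher and 2 lower, beside 3.24% and 1.97% of all genes tested, with equal counts in libraries 1 to 3. *Trpm5*, a calcium-activated cation channel of the β-cell membrane, fell by 1.06 (adjusted p = 6.0e-05). It overlaps *Tssc4* on the opposite strand, whose counts were 293% of its own. The T-type calcium channel *Cacna1g* and the IP3 receptor *Itpr2* rose by 1.12 (adjusted p = 0.0017) and 0.67 (adjusted p = 0.0026). Among the receptors and channels, *Gipr* (−0.66), *P2ry14* (1.29), *Kcnt1* (1.89), *Kcna2* (1.06), *Trpm5* (−0.84) and *Cacna1g* (0.79) did not keep an adjusted p under 0.05 with a term for depth. On counts thinned to the smallest total, *Kcnt1* had 0.74 (adjusted p = 0.57) and *Kcnj5* 1.98 (adjusted p = 0.053).

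Genes of fuel use were called at few steps. *G6pc2*, the islet glucose-6-phosphatase, ran from 43643 to 62082 (median 58866) in Ctrl to 29266, 30939.6, 26613, 25418 and 25168, a fall of 1.02 (SE 0.10, adjusted p = 4.0e-07). Among 34 glycolysis and lactate genes 4 were called higher and 2 lower, and 3 and 2 with libraries 1 to 3. In the TCA list of 39 genes 0 were called higher and 2 lower, namely fumarase *Fh1* (−0.90, adjusted p = 2.0e-06) and the pyruvate dehydrogenase phosphatase *Pdp2* (−0.61, adjusted p = 1.2e-05). Libraries 1 to 3 gave 1 TCA call in each direction, without *Pdp2*. At an adjusted p under 0.05 alone, 5 TCA genes were higher and 11 lower, beside 19.7% and 13.9% of expressed genes. Of 42 fatty acid oxidation and ketone genes 3 were called higher and 2 lower, and 3 and 0 with libraries 1 to 3. Without the fold threshold 14 of them were higher and 4 lower at an adjusted p under 0.05 in both fits. The shares of expressed genes with libraries 1 to 3 were 15.8% and 7.98%. The carnitine transferase *Cpt1a*, the entry step, rose by 0.85 (adjusted p = 1.7e-05), and the thiolase *Acaa2* by 0.65 (adjusted p = 2.8e-04). *Hadh*, the short-chain dehydrogenase that also restrains glutamate dehydrogenase in β-cells, fell by 0.74 (adjusted p = 7.3e-05), and the ketone body enzyme *Oxct1* by 0.68 (adjusted p = 3.6e-06). With libraries 1 to 3 *Pdp2*, *Hadh* and *Oxct1* kept an adjusted p under 0.05 at a fold under 1.5.

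Lipid droplet genes were called higher for 6 of 36 members and lower for 0, and for 4 and 0 with libraries 1 to 3. *G0s2*, an inhibitor of the triglyceride lipase ATGL, ran from 5.83 to 40.5 (median 13.3) in Ctrl and stood at 155, 148, 115, 176 and 124 in β-Mfn1/2DKO, a rise of 3.10 (SE 0.39, adjusted p = 6.0e-06). The droplet coat *Plin2* and the triglyceride synthase *Dgat2* rose by 1.10 (adjusted p = 2.1e-04) and 0.97 (adjusted p = 4.0e-04). In libraries 1 to 3 the 3 changes were 3.07, 0.79 and 1.18. At an adjusted p under 0.05 alone, the list of cholesterol and fatty acid synthesis moved the other way. In it 18 of 41 genes were lower and 4 higher, beside 13.9% and 19.7% of expressed genes. Calls numbered 2 lower and 1 higher, beside 1.97% and 3.24% of all genes tested, and 2 and 0 with libraries 1 to 3. The desaturase *Scd2* fell by 1.02 (adjusted p = 2.4e-06) and the transcription factor *Srebf1* by 0.67 (adjusted p = 5.0e-06). With libraries 1 to 3, 15 were lower and 2 higher at an adjusted p under 0.05, *Srebf1* among the lower at a fold under 1.5. Of the fuel and lipid genes, *G6pc2*, *Fh1*, *Cpt1a*, *Oxct1* and *Scd2* kept that adjusted p with a term for depth, and *Pdp2* (−0.51), *Acaa2* (0.76), *Hadh* (−0.51), *G0s2* (2.02), *Plin2* (0.71), *Dgat2* (1.04) and *Srebf1* (−0.46) did not. *G0s2* overlaps *Lamb3* on the opposite strand, which has 189% of its counts and a log2 difference of 2.59.

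All 13 mRNAs encoded by mtDNA were called lower (median −1.73, and −1.86 with libraries 1 to 3), and their share of counts fell from 1.86 ± 0.11% to 0.636 ± 0.071% (exact permutation p = 0.0022). Nuclear-encoded subunits of the respiratory chain were called at few genes. For complex I, 1 of 36 was called lower and 0 higher (median −0.01), and for complexes II to V, 1 of 44 was called in each direction (median −0.13). Libraries 1 to 3 gave 1 lower call for complex I and 1 higher call for the others. Without the fold threshold, 8 complex I genes were lower and 2 higher at an adjusted p under 0.05. For complexes II to V 11 were lower and 1 higher, beside 13.9% and 19.7% of expressed genes. With libraries 1 to 3 the counts were 5 lower and 5 higher, and 4 lower and 2 higher, beside 7.98% and 15.8%. *Ndufa1* fell by 0.71 (adjusted p = 2.7e-05). In contrast, *Cox6a2*, the muscle-type subunit of complex IV, rose by 1.05 (adjusted p = 8.8e-04). Its groups overlapped, and with a term for depth its log2 fold change was 0.95 (adjusted p = 0.24). Among mitochondrial chaperones and proteases 3 of 30 were called higher and 0 lower, with equal counts in libraries 1 to 3. *Chchd10*, an intermembrane space protein, ran from 1957 to 2739.5 (median 2183) in Ctrl and stood at 4948, 5341, 5268, 7021 and 4424 in β-Mfn1/2DKO, a rise of 1.28 (SE 0.11, adjusted p = 6.6e-08). The matrix protease *Lonp1* rose by 1.09 (adjusted p = 1.1e-06), the cochaperone *Dnaja3* by 0.66 (adjusted p = 3.0e-06), and the pyrimidine nucleotide carrier *Slc25a33* by 1.55 (adjusted p = 5.6e-08). The study itself reported these 3 rises and the fall of the 13 mtDNA-encoded mRNAs from the same libraries. Of the 30 chaperones and proteases 12 were higher and 2 lower at an adjusted p under 0.05, beside 19.7% and 13.9% of expressed genes.

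Of 82 cytosolic ribosomal protein mRNAs, 1 was called higher and 0 lower. At an adjusted p under 0.05 alone 54 were higher and 0 lower, beside 19.7% and 13.9% of expressed genes, with a median log2 fold change of 0.29 against 0.06 over all genes, and 50 were higher in libraries 1 to 3, beside 15.8%. The member that passed the fold threshold was *Rpl13*. It ran from 15021 to 18617 (median 16456) in Ctrl and stood at 26675, 28477, 24139, 24617 and 23187 in β-Mfn1/2DKO, a rise of 0.60 (SE 0.08, adjusted p = 5.9e-06). Mitochondrial ribosomal proteins were higher for 21 of 78 and lower for 3 at that adjusted p, and 0 were called.

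Among secreted growth factors *Areg* showed the largest change of its list. *Areg* encodes amphiregulin, a ligand of the EGF receptor (ENSMUSG00000029378, chromosome 5, 91139599–91148432). It ran from 14.6 to 65.6 (median 46.1) in Ctrl and stood at 2882, 2588, 2698, 3139 and 2919.5 in β-Mfn1/2DKO, a rise of 5.98 (SE 0.74, adjusted p = 5.8e-06), and 5.94 (adjusted p = 2.0e-05) with libraries 1 to 3. With a term for depth the *Areg* change was 8.21 (adjusted p = 2.2e-04). The single knockout of *Mfn2* had an *Areg* change of 3.43 (adjusted p = 0.29), and β-Mfn1/2DKO exceeded it by 2.55 (adjusted p = 0.0058). Another ERBB ligand, *Btc*, rose by 1.33 (adjusted p = 0.012) and did not pass with libraries 1 to 3, at 1.11 (adjusted p = 0.08). Over the 47 growth factor genes 8 were called higher and 1 lower, and 6 and 0 with libraries 1 to 3.

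Among markers of progenitors and dedifferentiation, 7 of 29 were called higher and 0 lower, and 5 and 1 with libraries 1 to 3. The tetraspanin *Cd81* ran from 1924 to 2909 (median 2521) in Ctrl and stood at 5999, 6069, 5523, 5676 and 6564 in β-Mfn1/2DKO, a rise of 1.29 (SE 0.08, adjusted p = 6.4e-10). The proto-oncogenes *Myc* and *Mycl* rose by 1.64 (adjusted p = 1.2e-05) and 1.62 (adjusted p = 5.0e-04), and by 1.28 and 1.79 with libraries 1 to 3. *Aldh1a3*, a marker of failing β-cells, rose by 1.19 (adjusted p = 0.019) with all libraries but had 0.64 (adjusted p = 0.29) with libraries 1 to 3, and without library 4 or library 5 alone its adjusted p was 0.053 or 0.071. The nuclear receptors *Thra* and *Vdr* changed in opposite directions, by 0.69 (adjusted p = 4.8e-07) and −0.80 (adjusted p = 2.2e-05). In the circadian clock, 3 of 23 genes were called higher and 0 lower, as in libraries 1 to 3 by count, among them the repressor *Ciart* (1.20, adjusted p = 1.2e-04). The activity-dependent factor *Npas4* fell by 1.82 (adjusted p = 0.019). *Rgs2*, a brake on G protein signals, rose by 0.81 (adjusted p = 1.7e-05). Of 21 BCL2 family genes, 2 were called, both higher, and 2 with libraries 1 to 3. *Hrk* and *Bid*, which promote cell death, rose by 3.36 (adjusted p = 5.4e-06) and 1.13 (adjusted p = 9.2e-06), and by 3.45 and 1.14 with libraries 1 to 3. *Hrk* stood at 6.08 to 23.3 (median 11.5) in Ctrl and 156, 128, 123.1, 137 and 107 in β-Mfn1/2DKO. *Bid* overlaps *Bcl2l13* on the opposite strand, which has 489% of its counts and a log2 difference of 0.03. The cyclin *Ccnd1* fell by 0.40 (adjusted p = 0.0013), and of 55 cell cycle genes 0 were called higher and 3 lower, and 0 and 2 with libraries 1 to 3. *Areg*, *Cd81*, *Mycl*, *Thra* and *Ciart* kept an adjusted p under 0.05 with a term for depth, and *Btc* (1.46), *Myc* (0.98), *Aldh1a3* (1.33), *Vdr* (−0.59), *Npas4* (−1.25), *Rgs2* (0.71), *Hrk* (0.61), *Bid* (0.83) and *Ccnd1* (−0.19) did not. On thinned counts *Mycl* had 1.24 (adjusted p = 0.32), *Btc* 1.21 (adjusted p = 0.098), *Aldh1a3* 1.17 (adjusted p = 0.08) and *Npas4* −1.97 (adjusted p = 0.17).

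Some lists were called mainly with β-Mfn1/2DKO libraries 4 and 5, which hold the acinar RNA. Of 36 p53 targets and cell cycle inhibitors 6 were called higher with all libraries and 1 with libraries 1 to 3. *Cdkn1a*, the inhibitor p21, had 2759 to 4575 (median 3661) in Ctrl and 4633, 4211, 3699, 7413 and 9603 in β-Mfn1/2DKO, so libraries 1 to 3 lay near the Ctrl range and 4 and 5 above it. Its rise of 0.68 (adjusted p = 0.014) became 0.20 (adjusted p = 0.39) with libraries 1 to 3. *Perp* and *Phlda3* behaved likewise, at 1.17 (adjusted p = 0.011) and 1.22 (adjusted p = 0.0025) against 0.20 and 0.52. *Trp53inp1* was the exception and rose by 0.88 (adjusted p = 6.6e-05) and by 0.64 (adjusted p = 8.1e-04). Genes held low in mature β-cells gave 7 higher calls of 30 with all libraries and 2 with libraries 1 to 3. Junction and adhesion genes gave 3 and 0, where the tight junction gene *Cldn4* went from 1.36 (adjusted p = 0.013) to 0.04. The β-cell connexin *Gjd2* fell by 0.49 (adjusted p = 6.4e-04), with every β-Mfn1/2DKO library below Ctrl. With libraries 1 to 3 its log2 fold change was −0.28 (adjusted p = 0.007). The part of acinar RNA in these values was not tested. Endothelial markers were called higher for 13 of 19 members with all libraries and for 4 with libraries 1 to 3, where 9 had an adjusted p under 0.05. *Plvap*, of the pores of islet capillaries, rose by 0.86 (adjusted p = 4.1e-04) and by 0.69 (adjusted p = 0.006), and *Eng*, *Pecam1* and *Tie1* by 0.80 (adjusted p = 1.1e-05), 0.66 (adjusted p = 7.0e-04) and 0.88 (adjusted p = 8.5e-04). With libraries 1 to 3 *Pecam1* had 0.50 (adjusted p = 0.011), under the fold threshold. With a term for depth, none of the p53, junction and endothelial genes named here kept an adjusted p under 0.05, and their log2 fold changes were *Cdkn1a* (0.47), *Perp* (0.85), *Phlda3* (0.66), *Trp53inp1* (0.83), *Cldn4* (0.87), *Gjd2* (−0.32), *Plvap* (0.92), *Eng* (0.69), *Pecam1* (0.47) and *Tie1* (0.94). Of 51 interferon-stimulated genes and 49 genes of autophagy and lysosome control 0 were called, with 4 and 9 higher and 0 and 3 lower at an adjusted p under 0.05.

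The 12 largest changes in each direction were also read among expressed genes outside the study's figure lists whose groups did not overlap and which passed with libraries 1 to 3. The largest rise was that of *Vmn2r3* (ENSMUSG00000091572, chromosome 3, 64257215–64289709), a gene named as a vomeronasal receptor. It ran from 3.51 to 32.0 (median 17.1) in Ctrl and stood at 1243, 1477, 805, 2010.1 and 1655 in β-Mfn1/2DKO, at 6.34 (SE 0.51, adjusted p = 1.9e-08). *Olfr330*, named as an olfactory receptor, ran from 11.6 to 27.5 (median 21.2) in Ctrl to 333, 331, 267, 273 and 221, a rise of 3.74 (SE 0.22, adjusted p = 1.3e-10), and it was also higher in β-Mfn2KO, by 1.33 (adjusted p = 0.019). *Vrtn*, a regulator of vertebral number, rose by 4.26 (adjusted p = 5.1e-06), and *Sgip1*, an endocytic adaptor, by 3.46 (adjusted p = 1.6e-08). *Stbd1*, which binds glycogen, rose by 2.66 (adjusted p = 1.4e-06), and the guanylate-binding protein *Gbp11* by 2.74 (adjusted p = 1.1e-04). *Fam196a* and *Phyhd1* rose by 3.19 and 2.99, but each overlaps a gene (*Dock1*, and *Gm28035* on the same strand) with 52% and 84% of its counts. The other rises of these 12 were *Areg*, *Stc2*, *Slc38a3* and *Nupr1*.

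The 12 largest falls were *Ins1*, *Pdyn*, 4 loci that resemble mtDNA and 6 other genes. *Gm10222*, *Gm28439*, *Gm28438* and *Gm13340* fell by 2.48, 2.37, 2.32 and 2.18, in the range of the mtDNA-encoded mRNAs, from which reads could be assigned to them. *Bambi-ps1*, a pseudogene, ran from 143 to 277 (median 214) in Ctrl and stood at 53.8, 47.9, 35.3, 27.4 and 18.7, a change of −2.53 (SE 0.28, adjusted p = 1.8e-06). *Ttyh1*, an anion channel, fell by 2.04 (adjusted p = 3.0e-06), and *Fkbp11*, a peptidyl-prolyl isomerase of the ER, by 1.87 (adjusted p = 1.6e-05). *Meltf*, *Dapl1* and *Fer1l6* fell by 1.92 (adjusted p = 7.1e-06), 1.88 (adjusted p = 3.8e-06) and 1.79 (adjusted p = 1.3e-07). Of these genes *Fkbp11* did not keep an adjusted p under 0.05 with a term for depth, at −1.52.

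The same genes were read in β-Mfn2KO, a comparison that shares its Ctrl libraries with this one. Of 110 genes given above with an adjusted p under 0.05 in β-Mfn1/2DKO, 3 had one in β-Mfn2KO against Ctrl (*Mfn2*, *Ins1* and *Olfr330*). Between β-Mfn1/2DKO and β-Mfn2KO, 103 of the 110 differed in the same direction at an adjusted p under 0.05. The 110 were selected on these β-Mfn1/2DKO libraries, which this comparison uses again, so a high count follows from the selection. No share over all genes stands beside either count. Of the 110, 24 were chosen for groups that do not overlap and for passing with libraries 1 to 3. For the other 86, 70 genes had groups that did not overlap and 79 kept their direction and an adjusted p under 0.05 with libraries 1 to 3. *Fgf21*, *Btc*, *Aldh1a3*, *Cdkn1a*, *Perp*, *Phlda3* and *Cldn4* did not keep it. These 86 were also kept for an adjusted p under 0.05 here, and some were named for their size within a list. Libraries 1 to 3 and the Ctrl libraries belong to that fit too, so these counts are not a separate check. Over all 110, 59 kept an adjusted p under 0.05 with a term for library depth, and 104 with every library thinned to the smallest total, where *Kcnj5*, *Kcnt1*, *Btc*, *Mycl*, *Aldh1a3* and *Npas4* did not.

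**Figure D5:**
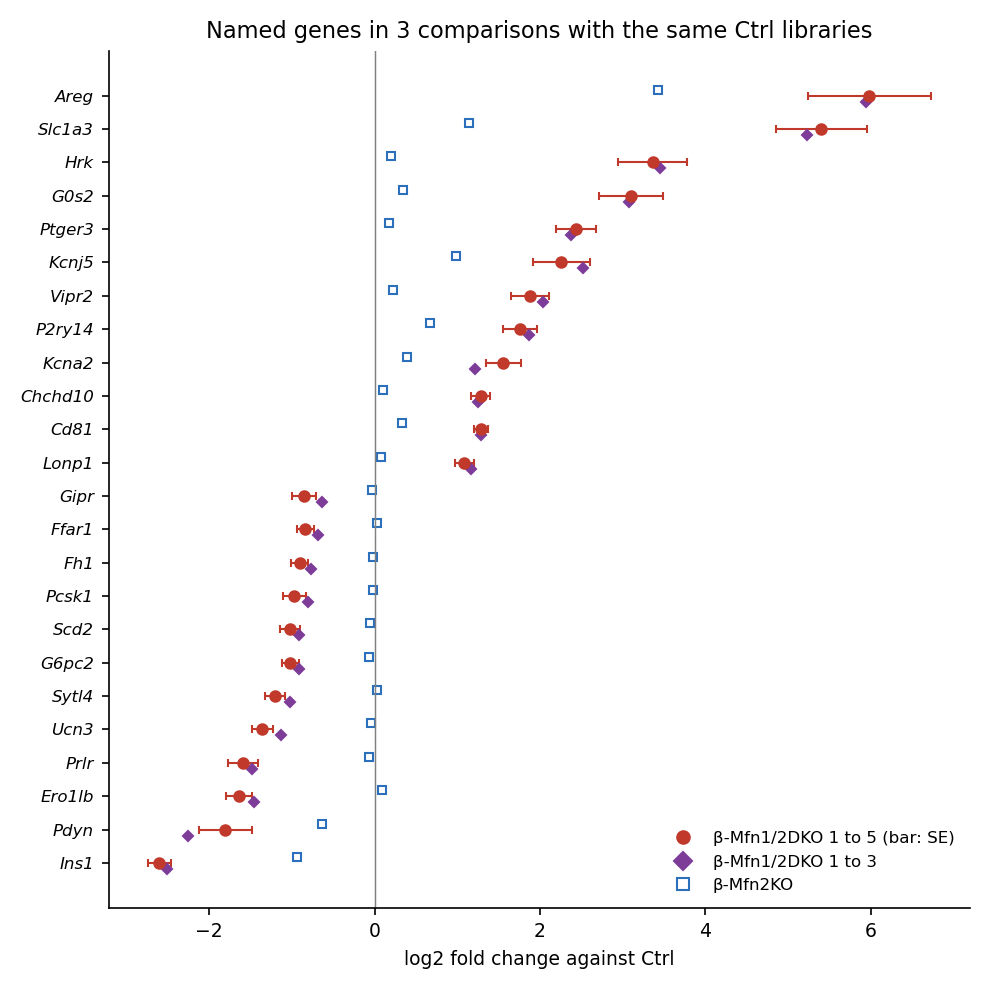
Log2 fold change against Ctrl (horizontal axis) of 24 named genes in β-Mfn1/2DKO libraries 1 to 5 (circles, with SE), in libraries 1 to 3 (diamonds) and in β-Mfn2KO (open squares), all against the same Ctrl libraries. *Areg* reaches 5.98 and *Ins1* −2.60, and the open squares of both genes lie closer to 0, at 3.43 and −0.94.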

How the data were processed

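RNA of islets was sequenced as paired reads of 151 bases. The authors trimmed reads with cutadapt 2.3, checked them with FastQC 0.11.8, aligned them with STAR 2.6.1b to GRCm38 and estimated gene counts with RSEM 1.3.1. The deposited values were estimated counts per gene, not normalized, in 28632 rows, of which 53 have no symbol. The Ctrl libraries held 12400687 to 20329064 counts and the β-Mfn1/2DKO libraries 65533388 to 122947313, so low counts are less precise in Ctrl. Whether counting used strand is not given in the sources used here. Overlaps not given above include *Ppat* with *Paics* (87% of its counts), *Plvap* with *Gtpbp3* (69%) and *Eng* with *Fpgs* (63%). Further ones are *Thra* with *Nr1d1* (61%), *Srebf1* with *Rai1* (60%), *Slc6a9* with *B4galt2* (43%) and *Dnaja3* with *Coro7* (41%), all on opposite strands. *Manf* overlaps *Rbm15b* on the same strand (32%).

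Counts were fitted with edgeR 4.0.16 (quasi-likelihood test, TMM, R 4.3.3) over all 20 libraries, with 1 coefficient per group, no filter and Benjamini-Hochberg adjustment over all genes. Groups came from the sample labels. Calls needed a fold over 1.5 beside an adjusted p under 0.05. Genes whose mean over the 11 libraries reached 100 normalized counts were described as expressed. SEs were taken from the log2 fold change and the square root of F. Marker shares were compared by exact permutation over samples. On simulated counts for this comparison (28045 genes), 193 of 200 changed genes were called, and 7 others. The changed genes lay above a low-count cut, and all their changes exceeded the fold threshold. The spread was assumed and no library was rich in acinar RNA, so these are not the error rates of the real data. Replicates are separate libraries; where nothing ties them to separate mice, p-values measure the spread between these samples.

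The gene lists (1761 members matched, 13 without a row) and members were chosen with earlier results of these data known. Genes were named when they were targeted, were key genes of a list, were among the 12 largest non-overlapping changes in a direction, or were among the 4 largest of a list; *Atf3* and *Sesn2* were added after their values were seen. Some genes that meet this rule are not reported here. Alternatives were another tool (DESeq2 1.42.0), other scalings, a low-count filter, fewer samples, covariates, thinned counts and left-out libraries. The fit with replicate numbers and libraries 1 to 3, and marker shares without Ctrl library 6, were chosen after seeing the data. Coordinates are from GENCODE M21 (GRCm38).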

Additional observations from a re-analysis of the deposited data

Results flagged for a closer look

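Of 252 groups of values tested (named genes and marker shares in Ctrl and in β-Mfn1/2DKO), 14 held a library whose gap to its nearest neighbour was large for the range of its group, or 5.56%, where chance gives about 5%. Ctrl library 6 was the one in 7 of these. Its leukocyte marker share was 0.0806% against a median of 0.0188% in the other Ctrl libraries, and its stromal share 0.0656% against 0.0132%. In normalized counts it was highest for *Btc* (56.0), *Bid* (405), *Phyhd1* (62.3) and *Stbd1* (747), and lowest for *Xbp1* (11201). Ctrl library 2 had 249.6 for *Cacna1g*, 1570 for *Gm10222* and 176 for *Gm13340*, against medians of 157, 2346 and 237 in the other Ctrl libraries, and Ctrl library 4 had 35.1 for *Kcnt1* against 14.8. Among β-Mfn1/2DKO libraries, library 2 had 3214 for *Cad* against a median of 3629 in the others and 12134 for *Xbp1* against 10623, and library 5 had 2150.1 for *Itpr2* against 1841.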

How the results depend on the processing

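The 1491 calls became 1573 with DESeq2, 1445 with DESeq2 size factors, 1489 with TMM computed without acinar, Reg and mtDNA genes, 1370 after a filter on low counts, 1333 with the Ctrl and β-Mfn1/2DKO libraries alone, 1356 with sex as a term and 1181 on thinned counts. A replicate block gave 1548. Replicate numbers do not pair the samples by any label, and residuals of same-numbered libraries correlated at 0.0455 to 0.356. Total-count scaling gave 1550 higher calls. A term for depth class, which is set only by the 2 deep and 3 shallow β-Mfn2KO libraries, gave 481 calls (251 higher, 230 lower) and 728 adjusted p under 0.05, and it kept 59 of the 110 named genes. The size of a kept change could still move. *Areg* went from 5.98 to 8.21, *Vmn2r3* from 6.34 to 8.05 and *Stc2* from 4.41 to 3.25 with that term. β-Mfn1/2DKO libraries 1 to 3 alone gave 956 calls (562 higher), and 1370 with the block added, a fit chosen after seeing the data. Without a fold threshold 4710 genes passed. With each library left out in turn there were 1161 to 1632 calls (668 to 1100 higher, 435 to 607 lower) and 3850 to 4937 adjusted p under 0.05. *Npas4* lost its adjusted p under 0.05 without Ctrl library 1 (0.0905) and without β-Mfn1/2DKO library 1 (0.0518) or 3 (0.0513). *Cdkn1a* lost it without β-Mfn1/2DKO library 5 (0.0735).

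The direction of some genes that did not pass the test turned. *Mthfd2* went from −0.14 to 0.004 with total-count scaling. *Abcc8* went from −0.057 to 0.083 with total-count scaling, 0.02 with the depth term, 0.093 with libraries 1 to 3, 0.063 with the block added to them and, with 1 library left out, −0.081 to 0.012, where the lone value above 0 was without β-Mfn1/2DKO library 4. *Kcnj11* went from −0.083 to 0.059 with total-count scaling, 0.094 with libraries 1 to 3 and 0.093 with the block added to them. The cause was not tested. Shallow Ctrl libraries limit what can be read from genes with few counts.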

Other observations

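Calls in other gene lists follow. Of 34 immediate early genes 4 were called higher and 4 lower, beside 3.24% and 1.97% of all genes tested, and 1 and 3 with libraries 1 to 3. *Nr4a2* and *Crem* had log2 fold changes of −0.72 and −0.64, with −0.71 and −0.66 in libraries 1 to 3. Of 50 antioxidant and NRF2 target genes, the hydrogen peroxide scavenger *Cat* rose by 0.92 on the log2 scale and *Gpx2* fell by 0.81. The thioredoxin inhibitor *Txnip* rose by 0.63 (adjusted p = 0.015), and with libraries 1 to 3 it differed by 0.49 (adjusted p = 0.059). Of 33 mitochondrial protein import genes 1 was called, the sulfhydryl oxidase *Gfer* at 0.62. Among hypoxia-inducible factor targets *Adm* was called higher and *Ankrd37* lower, at −0.81.

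Of 25 duct cell markers 9 were called higher and 2 lower with all libraries, and 1 and 2 with libraries 1 to 3. *Krt19* went from 2.94 to −0.53 and *Clu* from 2.19 to −0.40, while *Muc4* and *Prom1* stayed lower, at −0.88 and −0.70 with libraries 1 to 3. The Reg gene *Reg1* went from 3.53 to −0.90. These genes, other than *Krt19*, *Reg1* and *Clu*, were named after their values were seen.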
